A study of Mus musculus with 4 samples.

Results

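The 30 glycolysis and lactate genes described here were picked by gene symbol from the 32285 genes of the count matrices, and all 30 symbols were found. They cover glucose uptake (Slc2a1, Slc2a3), hexokinase (Hk1, Hk2), the upper and lower steps of glycolysis (Gpi1, Pfkl, Pfkm, Pfkp, Pfkfb3, Pfkfb4, Aldoa, Aldoc, Tpi1, Gapdh, Pgk1, Pgam1, Eno1, Eno2, Pkm), lactate production and transport (Ldha, Ldhb, Slc16a1, Slc16a3), the entry of pyruvate into the mitochondrion (Pdk1, Pdk3, Pdha1, Pdhb) and oxygen sensing (Hif1a, Egln1, Egln3). Single-cell RNA was counted in ovaries of prepubertal mice at postnatal day 25. There was 1 library in each of 4 groups: controls given PBS or saline, doxorubicin (a DNA-damaging chemotherapy drug, 3 mg/kg in each of 2 weekly doses), the same doxorubicin with recombinant human anti-Müllerian hormone (AMH, 0.75 mg/kg), and AMH alone. Ovaries were taken 4 hours after the second doxorubicin dose, and each library pooled 1 ovary from each of 5 animals, which leaves the variation from animal to animal unmeasured. No test between the groups was run, since each is a single library.

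Granulosa cells surround the oocyte and feed it. In the follicle they are known for breaking glucose down to pyruvate and lactate, which pass to the oocyte, an inefficient user of glucose. AMH is made by granulosa cells of small growing follicles, and it restrains follicle recruitment and the response to follicle-stimulating hormone. Lactate dehydrogenase is a tetramer of A and B subunits, encoded by Ldha and Ldhb, and A-rich forms are usually described as favouring lactate, B-rich forms pyruvate.

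The matrices held 9202, 7141, 7818 and 9478 cells in the control, doxorubicin, doxorubicin+AMH and AMH libraries, with total counts of 138647495 to 178279122 unique molecular identifiers (UMIs), and values for the 4 libraries are given in that order throughout. After filtering, 2139, 1969, 2307 and 2998 cells were granulosa-like by their markers, with median depths of 22467, 22865, 20887 and 16232.5 UMIs per cell. The summed level of 10 granulosa markers in them was 5314, 5312, 7111 and 5869 CPM (counts per 1000000 UMIs of the class), against 614 to 734 CPM for 7 theca markers and 4.2 to 12.2 CPM for 7 oocyte markers. At least 50 cells per library were also found of the theca-like, stroma-like, mural smooth muscle-like, blood endothelial-like and macrophage-like classes. Any pair of libraries shared 11 to 24 cell barcodes. Cluster 26, with markers of both granulosa and mural smooth muscle cells raised and a median of 5107.5 UMIs, was left unnamed and outside every class, and 177 of its 178 cells came from the doxorubicin library. Counted as granulosa-like, it left the doxorubicin medians given below at 0.17 and 0.14 and the AMH medians at 0.06 and 0.00.

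The sequence next to the start site is shown for 4 members whose levels carry the results below: the lactate dehydrogenase pair, which differed in opposite directions with AMH, and Eno1 and Pgk1, enzymes of lower glycolysis that were higher together with Ldha. Each line gives the 160 bases before the first RefSeq start site listed for the gene in GRCm38.p6, 5′ to 3′ on the gene's own strand. Capitals mark ACGTG, a core of the element bound by hypoxia-inducible factor, found on either strand (CACGT when it lies on the other strand, CACGTG where both overlap). The windows are chr7:46845644-46845803 for Ldha (plus strand), chr6:142507958-142508117 for Ldhb (minus strand), chr4:150236548-150236707 for Eno1 (plus strand) and chrX:106186940-106187099 for Pgk1 (plus strand), and none of them overlaps an annotated exon. RefSeq lists 2 start sites for Ldha and 3 for Eno1, and the Ldha site shown, at 46845804, lies inside the span of the annotated gene.
Ldha: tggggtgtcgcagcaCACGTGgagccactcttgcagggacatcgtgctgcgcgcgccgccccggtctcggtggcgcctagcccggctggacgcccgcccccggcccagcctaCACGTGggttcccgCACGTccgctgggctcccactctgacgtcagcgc
Ldhb: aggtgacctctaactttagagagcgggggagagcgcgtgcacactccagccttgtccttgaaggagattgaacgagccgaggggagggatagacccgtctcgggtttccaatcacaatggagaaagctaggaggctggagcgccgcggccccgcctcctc
Eno1: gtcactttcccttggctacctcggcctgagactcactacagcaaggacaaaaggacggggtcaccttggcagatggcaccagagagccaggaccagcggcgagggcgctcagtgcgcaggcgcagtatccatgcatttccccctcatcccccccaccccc
Pgk1: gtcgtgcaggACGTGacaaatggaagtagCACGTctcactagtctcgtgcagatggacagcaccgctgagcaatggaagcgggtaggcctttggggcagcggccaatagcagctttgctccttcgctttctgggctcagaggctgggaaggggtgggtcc

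The Ldha stretch holds 5 matches of ACGTG over both strands, of which 4 lie in 2 copies of the palindrome CACGTG, and the Pgk1 stretch holds 2. The Ldhb and Eno1 stretches hold 0, as do those before the other listed sites of Ldha and Eno1. RefSeq promoter windows, from 250 bases before to 50 after the start, matched 29 of the 30 members, all but Slc2a3, and 9 members had more than 1. In the first window listed, ACGTG was in 16 of the 29 (55.2%), against 5315 of 27025 genes (19.7%), and CACGTG in 4 (13.8%) against 1957 (7.24%). Over any listed window, ACGTG was in 19 of 29 (65.5%) against 5886 genes (21.8%). The 27025 genes were not matched to the members in base composition. A match describes the letters of a window and was not read as a bound site.

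In granulosa-like cells, members were kept for comparisons where their mean level was at least 20 CPM, and 19 of the 30 passed. The 11 below that level are given by value alone in comparisons between libraries over all these cells. Between classes, or between clusters, the limit applied to the mean over both sides, so a member could pass through its higher side alone. Within a cluster it applied to the mean of that cluster. Differences between libraries are log2 ratios of CPM + 5, with exact 95% intervals that cover counting error only, and a log2 ratio of at least 0.5 in size is called past the fold. Doxorubicin was read in 2 comparisons that share no library, without AMH (against control) and with AMH (the combination against AMH alone). AMH was read likewise without doxorubicin (against control) and with it (the combination against doxorubicin alone), and 2 ratios given together stand in that order. The doxorubicin and the AMH comparisons use the same 4 libraries, so they are not independent of each other.

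With doxorubicin, most of the glycolytic enzymes were slightly higher in granulosa-like cells: 17 of the 19 members lay above 0 in both comparisons and 0 below 0 in both, against 30.9% and 37.3% of 6612 genes. None passed the fold in both comparisons, in either direction (0 of 19), where the background over the same genes was 0.0151% higher and 0.0454% lower. The members' median log2 ratio was 0.18 against control (0.13 to 0.22, the medians of the members' lower and upper limits), with 19 of 19 above 0, while the median over all genes was -0.02 with 42.6% above 0. It was 0.14 in the presence of AMH (0.07 to 0.20), with 17 of 19 above 0, against a median of 0.00 and 51.0% above 0 over all genes. Without the level filter, over all 30 members, these medians were 0.11 and 0.04, and with the same mix of granulosa-like clusters in every library the second was 0.06.

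The members highest by the comparison nearer to 0 were Aldoa, Pgam1, Gapdh, Tpi1 and Pgk1, which encode aldolase, phosphoglycerate mutase, glyceraldehyde-3-phosphate dehydrogenase, triosephosphate isomerase and phosphoglycerate kinase. Aldoa stood at 266, 316, 346 and 287 CPM, with log2 ratios for doxorubicin of 0.24 (0.21 to 0.27) and 0.26 (0.24 to 0.29). Pgam1 stood at 152, 182, 202 and 169 CPM, with 0.26 (0.22 to 0.29) and 0.25 (0.22 to 0.29). In both genes each doxorubicin library lay above its partner without the drug.

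Gapdh was at 653, 745, 927 and 689 CPM, with 0.19 (0.17 to 0.21) without AMH and 0.43 (0.41 to 0.44) with it, the latter the largest doxorubicin ratio among the 19. Tpi1 was at 144, 164, 195 and 167 CPM, with 0.18 (0.14 to 0.22) and 0.22 (0.18 to 0.25). For Pgk1 the levels were 112, 127, 148 and 122 CPM, and the ratios 0.18 (0.13 to 0.22) and 0.27 (0.23 to 0.31). The combination library was the highest of the 4 for all 5 of these genes. Over 12 alternative runs, the doxorubicin ratios with AMH ran from 0.16 to 0.30 for Aldoa and 0.16 to 0.26 for Pgam1. They ran from 0.30 to 0.47 for Gapdh, 0.11 to 0.22 for Tpi1 and 0.15 to 0.28 for Pgk1. Gapdh and Eno1 have near copies elsewhere in the genome: 72.9% of 91-base stretches in the last 400 bases of the Gapdh transcript, and 68.4% of those of Eno1, also occur in transcripts of other genes, so reads could be split or dropped there. The named copies took few UMIs, 51 for Gm3839 and 6 for Gm10358 beside 339888 for Gapdh, and 898 for Eno1b beside 46816 for Eno1.

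**Figure D1:**
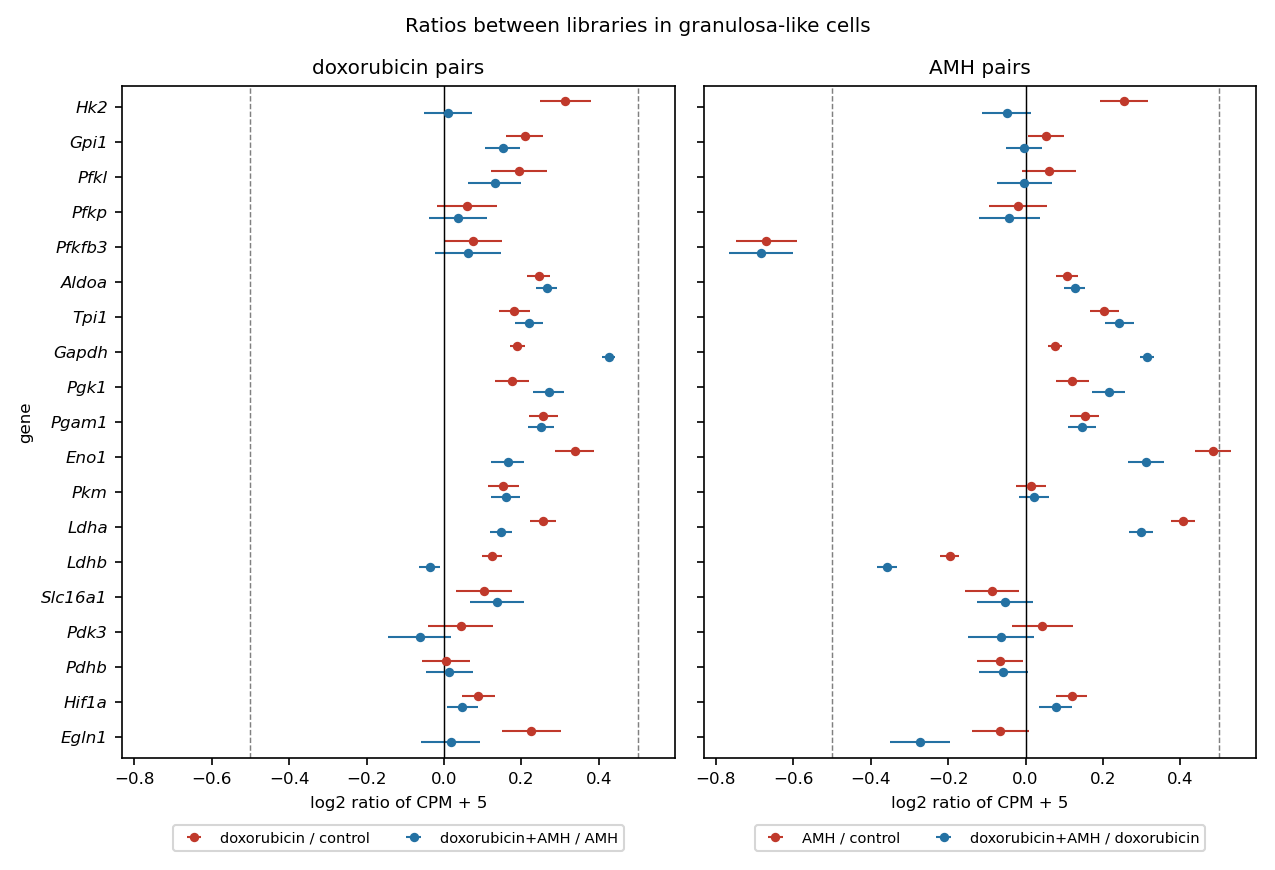
Log2 ratios of CPM + 5 between libraries in granulosa-like cells for the 19 members with a mean of at least 20 CPM, with the doxorubicin comparisons in the left panel and the AMH comparisons in the right. Points are ratios, bars exact 95% intervals for counting error and dashed lines the fold of 0.5 in either direction. Pfkfb3 is the 1 gene beyond the dashed line in both AMH comparisons.

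Hk2, the hexokinase that is regulated in many tissues, was at 44.1, 56.0, 54.0 and 53.6 CPM, so that the control library was the lowest and the 3 treated libraries lay close together, with doxorubicin ratios of 0.31 and 0.01. Gpi1, glucose-6-phosphate isomerase, was at 95.1, 111, 110 and 98.8 CPM, with doxorubicin ratios of 0.21 and 0.15. Of the phosphofructokinase subunits, Pfkl was at 36.2, 42.1, 42.0 and 38.0 CPM, and Pfkp at 31.0, 32.5, 31.4 and 30.5 CPM. Pkm, pyruvate kinase, was at 146, 163, 166 and 148 CPM, with 0.15 and 0.16. Both doxorubicin libraries were above both others in Gpi1, Pfkl and Pkm, and the Pfkp levels lay close together.

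Lower in expression and left out of the comparisons between libraries over all granulosa-like cells were Slc2a1 (18.6 to 20.05 CPM), the basal glucose transporter, Slc2a3 (1.64 to 1.83), Hk1 (10.3 to 17.0), Pfkm (9.59 to 11.3), Pfkfb4 (10.0 to 11.5), Aldoc (2.30 to 3.80), Eno2 (0.290 to 0.717), Slc16a3 (5.37 to 9.66), Pdk1 (15.4 to 16.9), Pdha1 (18.1 to 19.2) and Egln3 (0.307 to 0.638). Slc16a3, the exporter of lactate usually tied to high glycolytic rates, was at 5.37, 7.16, 8.99 and 9.66 CPM, with the control lowest. Hk1 was at 15.2, 17.0, 10.3 and 11.7 CPM, lower in both AMH libraries than in both others.

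With AMH the members were split: 9 of the 19 were above 0 in both comparisons and 6 below 0 in both, against 23.0% and 48.2% of all genes. The median log2 ratio was 0.06 against control (0.01 to 0.12), with 13 of 19 above 0, where all genes had a median of -0.06 and 33.8% above 0. It was 0.17 with marker gating of single cells and 0.12 with median-of-ratios scaling. On top of doxorubicin it was -0.00 (-0.05 to 0.06), with 9 of 19 above 0, against -0.03 and 41.1% over all genes. None of the members passed the fold upward in both comparisons (background 0.423%), and 1 did so downward (background 1.53%).

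That member was Pfkfb3, whose enzyme makes fructose-2,6-bisphosphate, the activator of phosphofructokinase. Pfkfb3 was at 35.5, 37.7, 21.6 and 20.5 CPM, so both AMH libraries lay well below both libraries without AMH, with log2 ratios of -0.67 (-0.75 to -0.59) and -0.68 (-0.77 to -0.60). Doxorubicin gave ratios of 0.08 and 0.06 for the same gene. When each cell was weighted equally the AMH ratios were -0.30 and -0.38, which no longer pass the fold. The gene lies on chromosome 2 at 11471433 to 11554077, minus strand, in GRCm38.

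The lactate dehydrogenase genes differed in opposite directions. Ldha (chromosome 7, 46841475 to 46855627, plus strand) was at 211, 253, 312 and 281 CPM, with AMH log2 ratios of 0.41 (0.38 to 0.44) and 0.30 (0.27 to 0.33). Ldhb (chromosome 6, 142490249 to 142507957, minus strand) was at 382, 417, 324 and 333 CPM, with -0.20 (-0.22 to -0.17) and -0.36 (-0.38 to -0.33). Both AMH libraries were above both others in Ldha and below both others in Ldhb.

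As a share of UMIs of the pair, Ldha made up 35.6% (35.1 to 36.1, exact Clopper-Pearson), 37.8% (37.3 to 38.2), 49.1% (48.6 to 49.6) and 45.8% (45.4 to 46.3). The share itself depends on how well each 3′ end was captured, so only its differences between libraries or cells are read here. The share was higher in both AMH libraries than in both others, and the gap between these pairs was wider than the gap within either. Doxorubicin gave Ldha ratios of 0.26 (0.22 to 0.29) and 0.15 (0.12 to 0.17).

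Eno1, enolase, was also higher in both AMH comparisons, at 81.3, 104, 130 and 116 CPM, with 0.48 (0.44 to 0.53) and 0.31 (0.26 to 0.36). Control was the lowest library and the combination the highest. Tpi1 (0.20 and 0.24), Pgam1 (0.15 and 0.15) and Pgk1 (0.12 and 0.22) completed the 5 members ranked highest in this way. Over 12 alternative runs, the Tpi1 ratios ran from 0.15 to 0.39 and from 0.12 to 0.30. Those of Pgam1 ran from 0.09 to 0.31 and 0.03 to 0.18, and those of Pgk1 from 0.04 to 0.31 and 0.07 to 0.26. Within clusters, members above 0 in both AMH comparisons numbered 5 of 20, 0 of 19, 11 of 21, 8 of 19 and 7 of 19 in clusters 4, 5, 8, 9 and 11, which are described below, and 10, 8, 5, 6 and 8 were below 0 in both. Over all genes the shares were 18.1, 20.9, 22.0, 25.1 and 31.4% above and 47.2, 39.6, 36.7, 44.1 and 43.4% below. In clusters 4 and 5 the Eno1 level was lower in the combination than with doxorubicin alone, and in cluster 4 it was just lower with AMH than in the control. At the low end after Pfkfb3 and Ldhb came Egln1 (-0.06 and -0.27), the oxygen-sensing prolyl hydroxylase, Pdhb (-0.07 and -0.06), a subunit of pyruvate dehydrogenase, and Slc16a1 (-0.09 and -0.05), a lactate and pyruvate carrier.

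Those last 3 differed little in level. Egln1 was at 32.0, 38.2, 30.8 and 30.3 CPM, with the doxorubicin library alone standing higher. Pdhb was at 56.3, 56.5, 54.1 and 53.5 CPM, and Slc16a1 at 38.7, 42.0, 40.3 and 36.1 CPM. Pdk3, a kinase that inhibits pyruvate dehydrogenase, was at 25.9, 26.8, 25.4 and 26.8 CPM, and Hif1a, the oxygen-regulated transcription factor subunit, at 127, 136, 144 and 139 CPM with AMH ratios of 0.12 and 0.08. Pdk3 showed no order by treatment, and Hif1a was lowest in the control.

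Genes beyond the 30 were set beside them. Of 35 other glycolysis and pyruvate genes, 9 passed the level filter, with medians of 0.10 and 0.08 for doxorubicin and -0.02 and -0.06 for AMH. Bsg, the chaperone of lactate carriers, was at 339, 370, 403 and 350 CPM, the same order of libraries as for Aldoa and Pgam1. Of 21 other oxygen-sensing and HIF-responsive genes, 14 passed, with medians of 0.04 and -0.04 for doxorubicin and 0.01 and 0.00 for AMH. The median of 19 genes of dissociation stress was 0.03 and 0.04 for doxorubicin, and 0.01 and -0.03 for AMH.

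The granulosa-like cells fell into 8 clusters, made from genes that did not include the members, and the mix of clusters differed between libraries. Cluster 11, led by Cntn4, Slc18a2 and Amh, held 16.7, 16.0, 7.5 and 8.87% of granulosa-like cells. Cluster 8, led by Inhba, held 13.6, 13.3, 19.0 and 17.7%, and cluster 9, with Inhbb and Inhba, 15.8, 12.9, 21.0 and 14.1%. Cluster 4, led by Kcnq5 and Ank3, held 26.9, 22.7, 15.2 and 21.6%, and cluster 5, with Fst and Mctp1, 18.0, 17.2, 24.0 and 18.2%. Of these 5 clusters, cluster 11 had the highest summed level of a small-follicle marker list in every library, at 1873, 1871, 1119 and 1195 CPM. The other 3 were small or shallow and are given after these.

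Several glycolytic enzymes differed more between clusters than between treatments. Cluster 4 had 7 members at least 0.5 log2 units below the other granulosa-like clusters in all 4 libraries (background 8.22% of 6615 genes), namely Aldoa, Tpi1, Gapdh, Pgk1, Pgam1, Eno1 and Pkm, and 0 above (background 8.62%). The median over members was -0.41, and 0.00 over all genes. Malat1 was also higher in cluster 4, at 27764, 26457, 26232 and 29512 CPM. It ran from 10714 to 23820 CPM in clusters 5, 8, 9 and 11, below cluster 4 in every library. In the shallow cluster 13, where the same 7 members were low, Malat1 was at 36989 to 49606 CPM. The part of RNA content in the low levels of cluster 4 was not tested. Gapdh in cluster 4 was at 413, 440, 452 and 349 CPM, with differences of -0.82, -0.93, -1.17 and -1.22. In cluster 8 Gapdh was at 992, 1078, 1343 and 970.1 CPM, 0.62 to 0.69 above the rest, and it was the 1 member past the fold there (background 2.46% higher, 4.03% lower with 0 members).

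Pgk1 was the 1 member higher in cluster 9, at 145, 172, 186 and 167 CPM (background 5.05% higher, 3.93% lower with 0 members). Cluster 5 had 0 members past the fold (background 0.742% higher and 4.48% lower), although its members' median was 0.30 against -0.08 for all genes. Eno1 there was at 132, 155, 147 and 172 CPM. Eno1 in cluster 4 was at 52.4, 64.8, 61.8 and 51.9 CPM, below cluster 5 in all 4 libraries.

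Cluster 11 had Pfkfb3 and Ldhb higher (background 4.67%) and Gapdh and Eno1 lower (background 3.77%) than the other granulosa-like clusters. Pfkfb3 in cluster 11 was at 61.3, 66.6, 34.4 and 34.8 CPM, and its differences from the other clusters were 0.96, 1.01, 0.63 and 0.72. Ldhb there was at 565, 617, 475 and 511 CPM. Gapdh was at 410, 508, 497 and 378 CPM, and Eno1 at 48.8, 60.5, 77.7 and 58.2 CPM. Among the deeper clusters 4, 5, 8, 9 and 11, cluster 11 had the highest Pfkfb3 and Ldhb in every library. With each cell weighted equally, Ldhb alone remained past the fold upward.

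**Figure D2:**
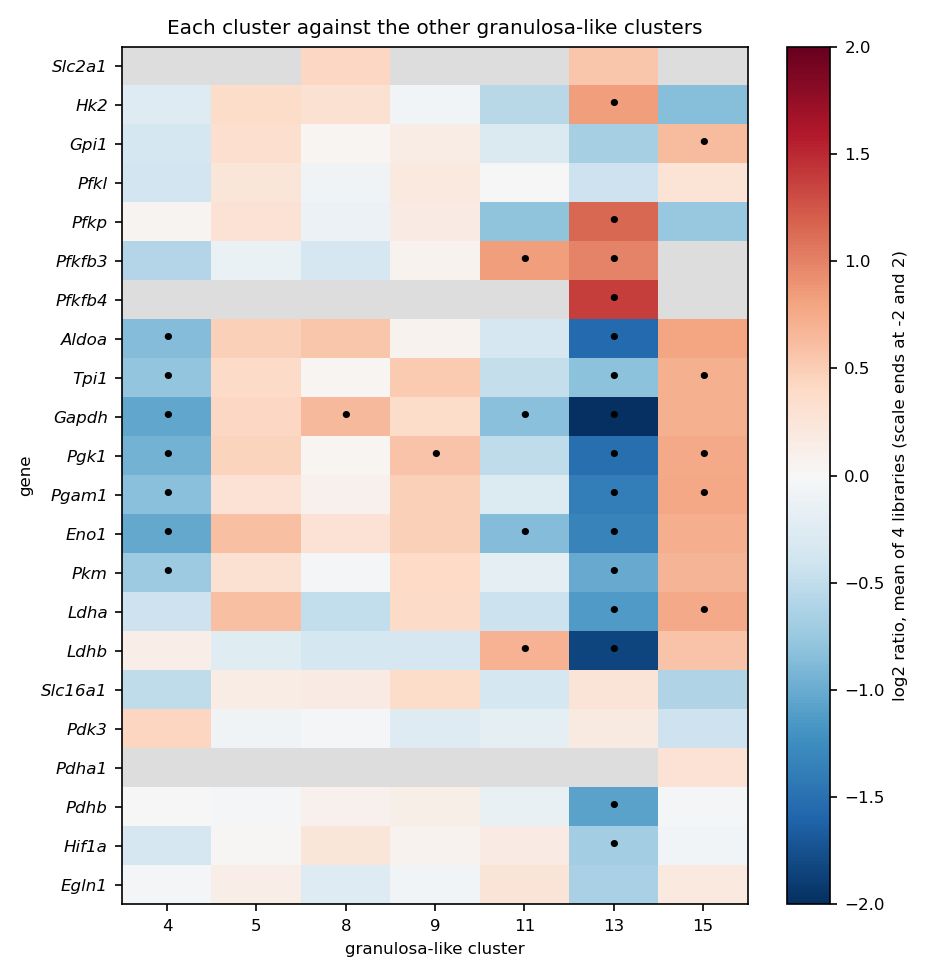
Log2 ratio of each granulosa-like cluster to the other granulosa-like clusters for the members (rows), as the mean of the 4 libraries. Dots mark a difference of at least 0.5 in the same direction in 4 of 4 libraries, and grey cells fell below the level filter. Cluster 4 is low in 7 glycolytic enzymes, all of which are low in the shallow cluster 13 too. Cluster 11 is high in Pfkfb3 and Ldhb, but in Ldhb alone with each cell weighted equally, and cluster 13 is also high in Pfkfb3.

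The AMH comparisons of Ldha, Ldhb and Pfkfb3 were repeated within clusters. Ldha in cluster 11 was at 132, 171, 313 and 232 CPM, with AMH log2 ratios of 0.78 and 0.85, past the fold in both (background 2.95%). The small-follicle markers and the share of granulosa-like cells in cluster 11, both given above, were lower in both AMH libraries, and their part in the Ldha values there was not tested. Its share of the lactate dehydrogenase pair was 19.0, 21.7, 39.7 and 31.2%, the lowest share among the clusters in every library but the combination, where cluster 4 was lower. The AMH ratios of Ldha in the other deeper clusters were 0.37 and 0.24 (cluster 4), 0.26 and -0.03 (cluster 5), 0.50 and 0.34 (cluster 8) and 0.39 and 0.09 (cluster 9).

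Ldhb had AMH ratios of -0.15 and -0.37 in cluster 11, -0.20 and -0.23 in cluster 9, -0.12 and -0.02 (-0.08 to 0.04) in cluster 4, 0.04 and -0.11 in cluster 5 and -0.02 and 0.00 in cluster 8. Ldha and Ldhb thus lay on opposite sides of 0 in both comparisons in clusters 4, 9 and 11 and not in clusters 5 and 8, where the Ldhb levels were 301 to 325 and 281 to 298 CPM.

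The shares of Ldha were 30.9, 32.9, 37.0 and 38.7% in cluster 4, 34.1, 38.5, 44.3 and 42.9% in cluster 8, and 44.4, 49.5, 55.1 and 54.7% in cluster 9. In cluster 5 they were 51.8, 53.8, 55.1 and 55.6%. Both AMH libraries had a larger share than both others in all 5 of these clusters, and the gap was widest in cluster 11 and narrowest in cluster 5.

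Pfkfb3 was lower in both AMH comparisons in cluster 11 (-0.74 and -0.86, background 4.08%) and in cluster 9 (-0.72 and -0.93, background 1.49%), where it was at 35.9, 45.5, 21.5 and 19.9 CPM. Marker levels in cluster 9 also moved with AMH: the small-follicle list summed to 583, 739, 291 and 273 CPM and the antral list to 1094, 1230, 1896 and 1919 CPM. The small-follicle list was lower in both AMH libraries in cluster 5 as well (331, 328, 195 and 207 CPM) and in cluster 11, as given above. In cluster 8 it was at 179, 133, 102 and 128 CPM and the antral list at 3025, 3433, 4664 and 3732 CPM. The part of these markers in the Pfkfb3 ratios was not tested. The ratios were -0.60 and -0.44 in cluster 5 and -0.38 and -0.65 in cluster 8. In cluster 4 they were -0.20 (-0.38 to -0.03) and 0.16 (-0.05 to 0.37), at a low level of 16.4 to 21.0 CPM. Pfkfb3 was thus lower in both comparisons in 4 of these 5 clusters. Clusters 4, 5 and 8 had 0 members past the fold with AMH in both comparisons (background 0.199, 0.257 and 0.498% higher and 0.521, 0.66 and 1.12% lower), and none was higher in cluster 9 (0.507%). Given the same mix of clusters in every library, the AMH ratios were -0.57 and -0.60 for Pfkfb3, 0.40 and 0.21 for Ldha, -0.09 and -0.16 for Ldhb and 0.42 and 0.12 for Eno1, so for Ldhb, and for Eno1 on top of doxorubicin, the ratio was less than in the unweighted cells by more than 1.5 times.

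**Figure D3:**
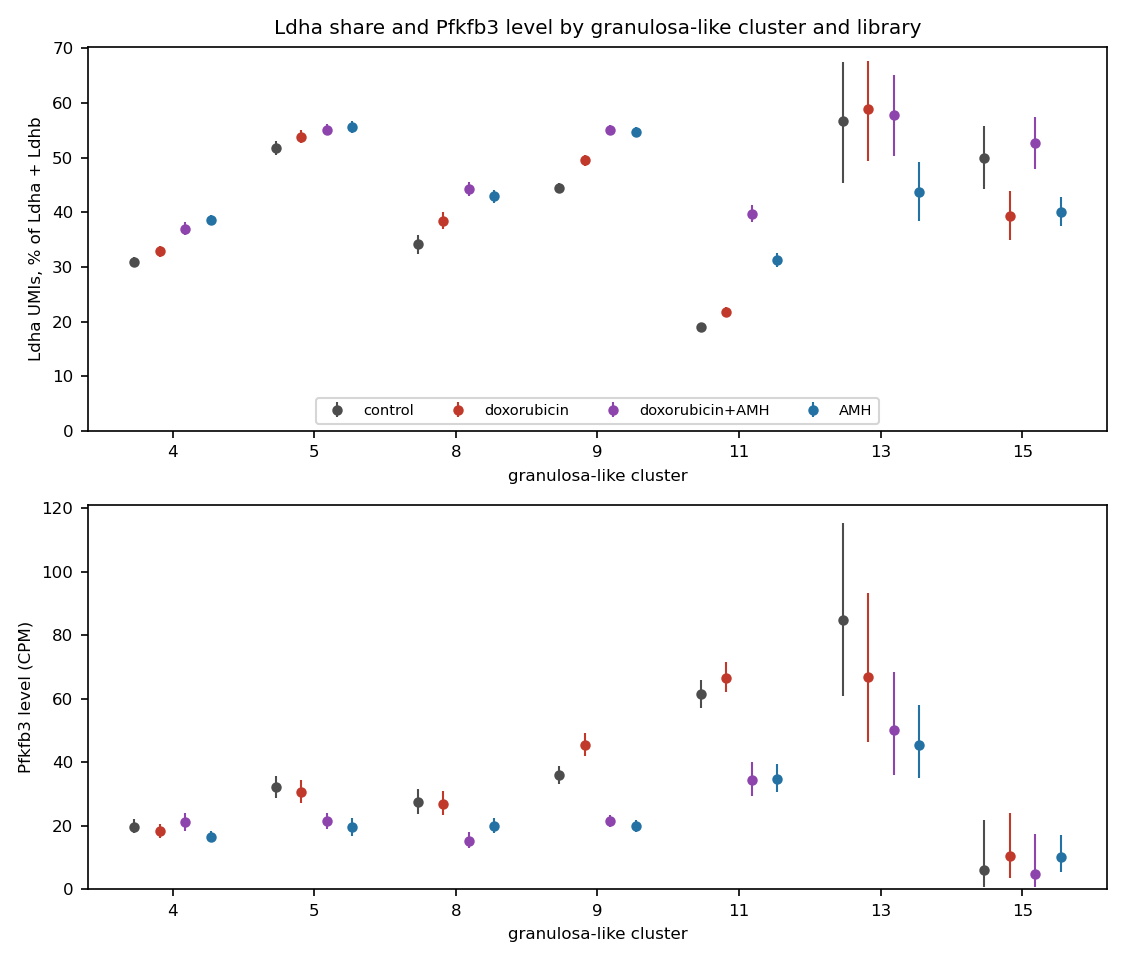
Ldha as a percentage of Ldha + Ldhb UMIs, and the Pfkfb3 level in CPM, for each granulosa-like cluster and library, with exact 95% intervals for counting error. In cluster 11 the Ldha share runs from 19.0% in the control to 39.7% in the combination, and Pfkfb3 from 34.4 to 66.6 CPM.

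The doxorubicin comparisons were also repeated within clusters. The members' median ratios for doxorubicin were 0.10 and 0.09 in cluster 4, 0.13 and 0.16 in cluster 8, 0.20 and 0.04 in cluster 9 and 0.23 and 0.30 in cluster 11. In cluster 5 they were 0.16 and -0.05. In these 5 clusters 0 members passed the fold in both doxorubicin comparisons. The background was 0.0153, 0, 0.0934, 0 and 0.0894% higher and 0.0307, 0, 0.0779, 0.123 and 0.268% lower in clusters 4, 5, 8, 9 and 11. Members above 0 in both comparisons numbered 15 of 20 in cluster 4, 4 of 19 in cluster 5, 19 of 21 in cluster 8, 13 of 19 in cluster 9 and 14 of 19 in cluster 11. The share of all genes above 0 in both was 27.3, 24.6, 31.4, 30.1 and 30.1% in the same order, so that the members' count in cluster 5 lay near that of all genes. In the shallow clusters 13 and 15, described next, 4 of 20 and 4 of 17 members were above 0 in both (29.3% and 22.5% of all genes), and 4 and 3 were below 0 in both (22.1% and 21.2%).

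Of the 3 small or shallow clusters, cluster 13 held 5.70, 6.4, 8.71 and 13.5% of granulosa-like cells at a median depth of 2833 to 3517.5 UMIs, and ribosomal protein genes took only 3.84 to 7.61% of its UMIs. Hk2, Pfkp, Pfkfb3 and Pfkfb4 were higher there than in the other clusters (4 members, background 24.0%). Pfkfb4 was below the level filter in granulosa-like cells as a whole and passed through cluster 13, so it could be called only higher there. In cluster 13, 11 members were lower (background 20.1%), including all 7 that were low in cluster 4, with Gapdh at 151, 139, 224 and 196 CPM. Pfkfb4 in cluster 13 was past the fold downward with AMH, at -1.11 and -0.97 (background 1.83%), on 18 to 34 UMIs per library. No member was past it in both comparisons upward with AMH (4.45%) or in either direction with doxorubicin (1.34 and 1.36%). Cluster 15, at 1628.5 to 7619.5 UMIs and 31.3 to 32.6% ribosomal protein UMIs, had Gpi1, Tpi1, Pgk1, Pgam1 and Ldha higher (5 members, 1 with each cell weighted equally, background 9.12%) and 0 lower (background 27.6%). It had 0 members past the fold between libraries in both comparisons (background 1.75 and 1.83% for doxorubicin, 2.04 and 1.77% for AMH). Cluster 30 held 80 cells of the doxorubicin library and 1, 1 and 2 of the control, combination and AMH libraries. The part of depth and RNA content in these 3 clusters was not tested. With all 3 left out, the members' medians over granulosa-like cells were 0.18 and 0.14 for doxorubicin and 0.06 and 0.01 for AMH, and Pfkfb3 was again the 1 member past the fold.

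Between cell classes, a difference of at least 1 log2 unit in all 4 libraries was called. Hk1, Pfkfb4 and Pdha1 were below the level filter in granulosa-like cells, and Hk2 was below it in mural and blood endothelial-like cells. In those comparisons each of them passed through the class where it was high, so its call could go in that direction only. Granulosa-like cells were above stroma-like cells in Gapdh, Eno1 and Hif1a and below in Pdha1 (background 6.41% higher, 8.71% lower), with a median over members of 0.57 against 0.14 for all genes. With marker gating 6 were higher, adding Aldoa, Pgk1 and Pgam1. They were above mural smooth muscle-like cells in Hk2, Gapdh, Pgk1 and Eno1 and below in Hk1 and Pdha1 (background 7.16% and 9.13%), with medians of 0.62 and 0.14, and 2 of the 4, Hk2 and Eno1, were higher with median-of-ratios scaling. Against theca-like cells they were higher in Hif1a and lower in Hk2 and Pfkfb4 (background 7.27% and 5.88%), with medians of 0.12 and 0.13, and 0 members were lower when cells were gated singly by markers or weighted equally. They were above blood endothelial-like cells in Hk2, Aldoa, Pgam1 and Ldhb and below in Hk1 (background 7.72% and 14.1%), with medians of 0.16 and 0.07. Of these 4, 2 were higher under each alternative run, Hk2 and Ldhb with median-of-ratios scaling or equal weighting and Aldoa and Ldhb with gating. Against macrophage-like cells, Ldhb alone was higher and 0 were lower (background 13.5% and 15.6%), with medians of 0.33 and 0.24.

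**Figure D4:**
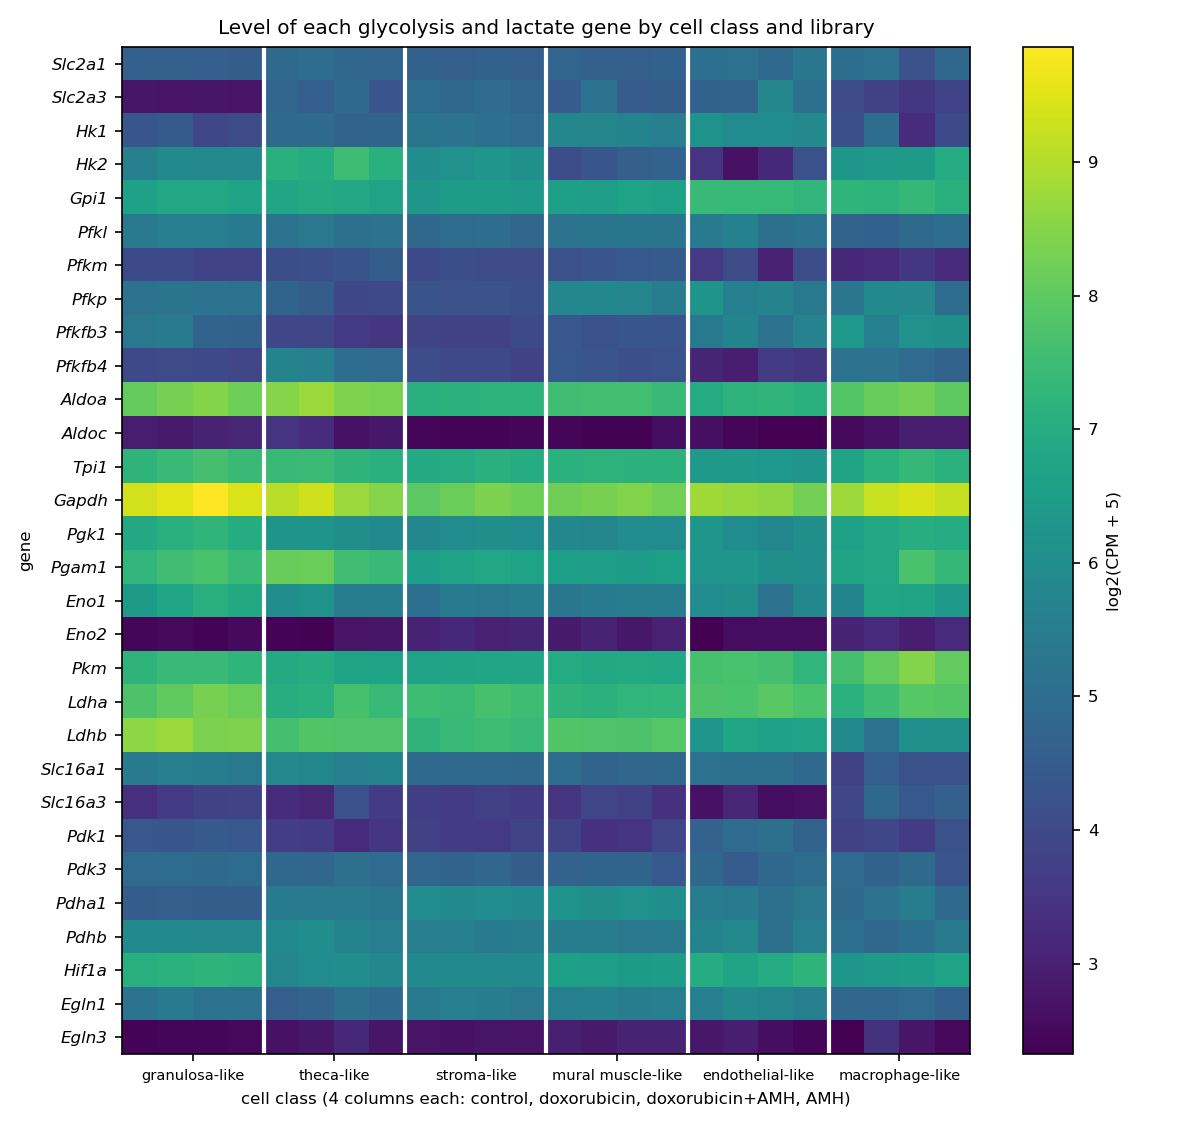
Levels of the 30 members as log2(CPM + 5) in the 6 cell classes compared, with the 4 libraries side by side within a class. Hk2 is high in theca-like cells, Hk1 in blood endothelial-like cells and Ldhb in granulosa-like cells, in every library.

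Among the 6 classes compared, members were ranked by how far the highest class stood above the median class in every library, and Hk2 came first. It was at 134, 123, 179 and 133 CPM in theca-like cells and at 6.13, 1.41, 4.19 and 13.4 CPM in blood endothelial-like cells. The other hexokinase, Hk1, was highest in blood endothelial-like cells at 67.2, 57.5, 57.6 and 53.3 CPM. The Hk1 share of hexokinase UMIs was 79.9 to 97.6% there and 66.5 to 80.4% in mural cells, against 25.6, 23.3, 16.0 and 17.9% in granulosa-like cells and 10.7 to 17.1% in theca-like cells. The Hk1 share was thus higher in endothelial and mural cells than in granulosa-like and theca-like cells in all 4 libraries.

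Pfkfb4, a relative of Pfkfb3, was highest in theca-like cells at 47.1, 43.7, 27.7 and 25.8 CPM, lower in both AMH libraries. Pfkfb3 was highest in macrophage-like cells in 3 libraries (76.8, 43.2, 66.0 and 63.1 CPM) and in blood endothelial-like cells in the doxorubicin library (36.2, 47.6, 30.4 and 45.7 CPM). The last of the 5 members ranked first in this way was Ldhb, highest in granulosa-like cells and lowest in macrophage-like cells at 54.9, 30.2, 64.1 and 64.3 CPM.

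Ldha shares of the lactate dehydrogenase pair followed the class. They were 39.3, 37.6, 47.9 and 43.1% in theca-like cells, 55.3, 50.7, 53.4 and 52.4% in stroma-like cells, 39.5, 39.0, 41.6 and 40.0% in mural cells, 74.4, 66.8, 71.6 and 68.2% in blood endothelial-like cells and 71.3, 85.4, 78.5 and 77.8% in macrophage-like cells. Both AMH libraries were above both others in theca-like cells, as in granulosa-like cells, and slightly so in mural cells. In the remaining classes the AMH libraries lay between the others.

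The glucose transporters were split by class as well. Slc2a1 made up 91.3 to 92.4% of the Slc2a1 and Slc2a3 UMIs in granulosa-like cells, 43.2 to 46.2% in stroma-like cells and 53.5, 59.0, 47.9 and 60.1% in theca-like cells. Slc2a3 was at 26.6, 24.3, 25.9 and 22.4 CPM in stroma-like cells. For the lactate carriers, Slc16a1 was 87.8, 85.4, 81.7 and 78.9% of the pair in granulosa-like cells and 40.7 to 46.7% in macrophage-like cells. Among phosphofructokinases, Pfkl, Pfkm and Pfkp took 46.1, 14.4 and 39.5% in control granulosa-like cells and 50.6, 11.5 and 37.8% in the combination, a small difference. Aldoa was 98.7 to 99.3% of aldolase UMIs and Eno1 99.3 to 99.8% of enolase UMIs in granulosa-like cells.

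In theca-like cells, the steroid-producing layer around the follicle, 22 of the 30 members passed the filter. With doxorubicin 0 members passed the fold in both comparisons (background 0.016% in each direction), and the members highest by the comparison nearer to 0 were Gapdh, at 535, 629, 423 and 358 CPM with 0.23 and 0.24, and Hif1a, at 49.8, 57.2, 59.2 and 52.6 CPM with 0.18 and 0.16. With AMH, 4 members were past the fold downward in both comparisons (background 8.15%) and 0 upward in both (background 5.37%): Pfkfb4 (-0.76 and -0.58), Gapdh (-0.57 and -0.57), Pgam1 (-0.70 and -0.60) and Eno1 (-0.53 and -0.70). Pgam1 was at 273, 281, 183 and 167 CPM, with both AMH libraries below both others. Of the 4, 2 were past the fold with median-of-ratios scaling and 1 with marker gating, and without the level filter there were 6, with Pfkp and Aldoc added. The members' median was -0.16 and -0.18, against -0.07 and -0.05 for all genes. Ldha went the other way, at 125, 132, 198 and 165 CPM, with 0.39 and 0.57.

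The theca-like cells of the 4 libraries came from different clusters, however. Cluster 6, led by Cyp17a1, held 95.9, 95.2, 24.1 and 19.2% of them, and cluster 10, led by Lhcgr and Prss35, held 2.29, 3.76, 74.7 and 79.9%. The sum of 7 theca markers was 13691, 13310, 4872 and 4649 CPM, that of 8 stroma markers 775, 788, 1558 and 1630 CPM, and the dissociation stress list had AMH medians of 0.59 and 0.35. Within cluster 6 alone, 0 members passed the fold in both comparisons in either direction (background 6.88% lower, 3.87% higher with AMH, and 0.0161% and 0.0484% with doxorubicin), and the members' AMH medians were 0.06 and 0.12. Gapdh there had 0.09 and 0.11, Eno1 0.25 and -0.12, Pgam1 -0.33 and -0.28 and Pfkfb4 -0.44 and -0.15, while Ldha kept 0.37 and 0.58. Cluster 6 had 796, 557, 176 and 172 cells. In the control and doxorubicin libraries its Malat1 level was 46249 and 47187 CPM, at median depths of 20930 and 25095 UMIs. In the combination and AMH libraries cluster 10 had Malat1 at 82979 and 92876 CPM, at median depths of 11815.5 and 11101.5 UMIs. The part of depth and RNA content in the theca-like ratios was not tested.

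**Figure D5:**
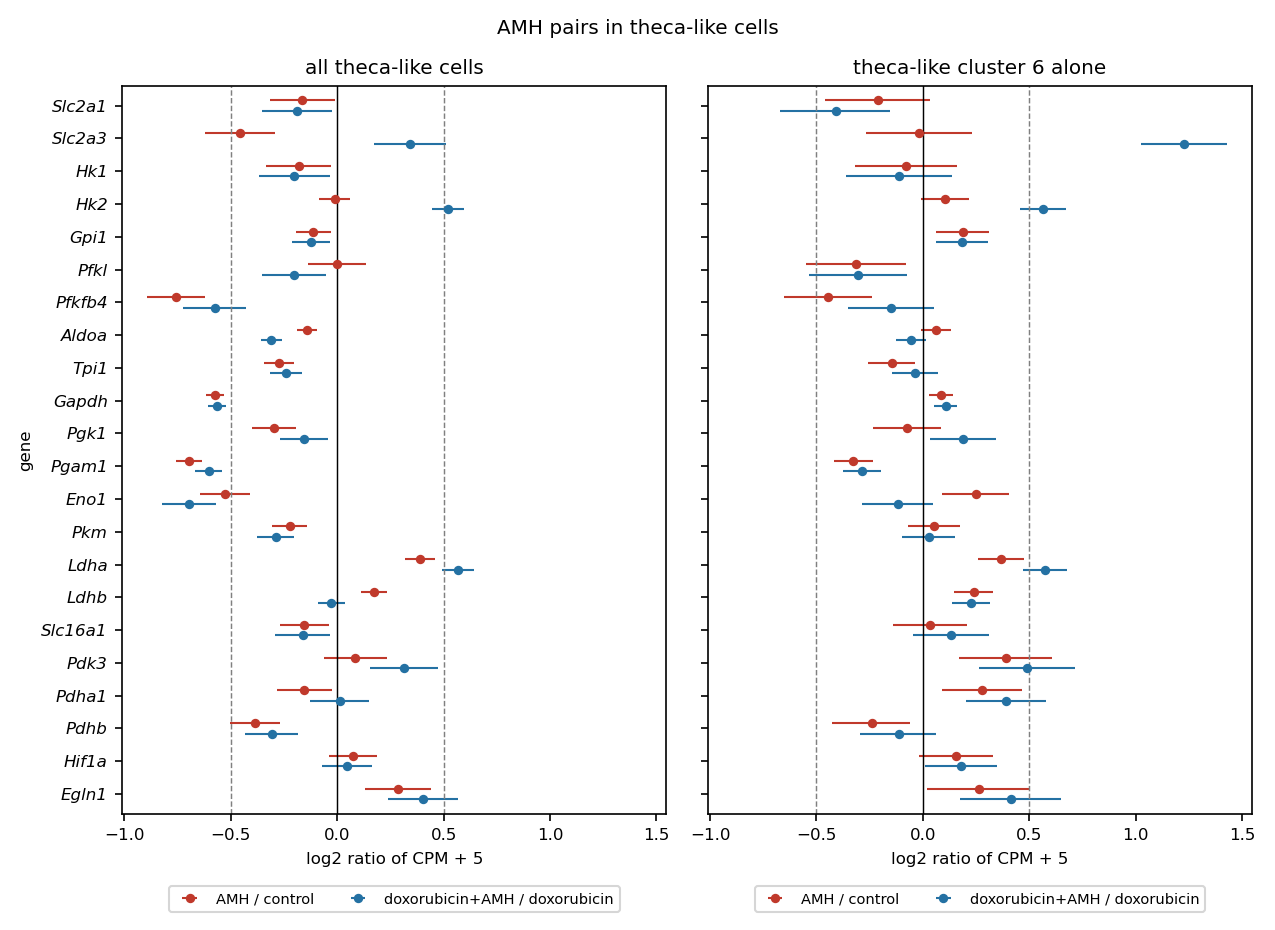
Log2 ratios of CPM + 5 for the AMH comparisons in all theca-like cells and in the Cyp17a1-led cluster 6 alone, with exact 95% intervals for counting error. Gapdh lies at -0.57 in all theca-like cells in both comparisons and at 0.09 and 0.11 in cluster 6, whereas Ldha lies between 0.37 and 0.58 in both sets of cells.

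In stroma-like cells 20 members passed the filter and 0 passed the fold in both comparisons, with doxorubicin (background 0.06% higher, 0.045% lower) or with AMH (background 0.12% and 0.345%). Gapdh was at 243, 286, 325 and 286 CPM, with ratios of 0.23 and 0.18 for doxorubicin and 0.23 and 0.18 for AMH. Pgam1 was at 86.9, 97.0, 107 and 98.1 CPM, with 0.15 and 0.12, and 0.17 and 0.14. In both genes the control was the lowest library and the combination the highest, with the single agents between them.

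In mural smooth muscle-like cells 21 members passed the filter and 0 passed the fold in both comparisons (background 0.121% and 1.03% for doxorubicin, 0.091% and 0.637% for AMH). The mix of clusters in this class moved with doxorubicin: cluster 16 gave 200 of 1010, 21 of 609, 55 of 819 and 185 of 927 cells, and its part in the ratios was not tested. Gapdh was at 294, 313, 343 and 301 CPM (0.09 and 0.18 with doxorubicin), and Slc2a1 at 22.3, 20.003, 19.2 and 20.5 CPM (-0.13 and -0.08). Pfkp was at 50.8, 52.9, 48.4 and 40.8 CPM (-0.28 and -0.12 with AMH), and Pdhb at 40.0, 41.1, 35.2 and 36.1 CPM (-0.13 and -0.20). The libraries lay close together in all 4 genes, Pfkp in the AMH library being the lowest relative to its control.

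In blood endothelial-like cells, of which there were 168, 112, 56 and 84, 23 members passed the filter and 0 passed the fold in both comparisons (background 0.102% and 0.979% for doxorubicin, 1.33% and 1.43% for AMH). The AMH library stood apart in markers of other cells: the sum of 7 macrophage markers was 25.4, 17.9, 24.1 and 244 CPM, that of 8 stroma markers 356, 290.3, 353 and 907 CPM and that of 5 erythroid markers 16.6, 18.8, 18.9 and 411 CPM. Their part in the values that follow was not tested. Pgk1 was at 74.8, 58.0, 50.3 and 62.2 CPM (-0.34 and -0.28 with doxorubicin) and Pdk1, a kinase that holds back pyruvate dehydrogenase, at 20.7, 25.9, 29.3 and 21.5 CPM (0.26 and 0.37). Slc2a3 was at 20.4, 21.2, 51.4 and 29.1 CPM, with 0.42 and 1.10 for AMH, and the combination library alone stood well above the rest. Pfkl was at 38.5, 44.8, 29.3 and 31.3 CPM, with -0.26 and -0.54.

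In macrophage-like cells (188, 88, 93 and 183 cells) 21 members passed the filter. Pfkp was past the fold upward with doxorubicin (1 member, background 1.42%; 0 lower, 1.99%), at 34.2, 56.2, 53.7 and 26.9 CPM, with 0.64 (0.07 to 1.20) and 0.88 (0.36 to 1.40), on 39 to 57 UMIs per library. Pgam1 was past the fold upward with AMH (1 member, background 1.54%; 0 lower, 2.08%), at 100.1, 107, 201 and 159 CPM, with 0.64 (0.36 to 0.92) and 0.88 (0.51 to 1.27). Neither call held under marker gating (0 members in either comparison) or equal weighting (Pgam1 and Pkm with doxorubicin, 0 with AMH), and with doublets left in Ldha was past the fold with AMH as well. Pkm was at 193, 261, 351 and 260 CPM, with 0.42 and 0.43 for doxorubicin and 0.42 and 0.42 for AMH, so that each agent alone lay between control and the combination. The dissociation stress list had medians of -0.35 and -0.40 for doxorubicin in these cells, and the sum of 10 granulosa markers was 165, 271, 331 and 437 CPM and that of 7 theca markers 385, 167, 306 and 66.8 CPM. Their part in the results was not tested.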

How the data were processed

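Ovaries were dissociated with papain and collagenase and sequenced with a 10x Genomics 3′ kit, per the labels' protocols. The deposited matrices hold raw UMI counts per gene and cell, made by the authors with Cell Ranger 7.0.0 per the file headers; mm10, R 4.2.0 and Seurat 4.1.0 stand in the submitters' processing notes. Whether intronic reads were counted is not given in the sources used here.

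Cells under 1000 UMIs, or with over 20% of UMIs from mitochondrial genes, were left out. Scrublet's automatic threshold marked 0, 1, 0 and 0 cells, so the highest scores were removed at 0.8% per 1000 deposited cells, which left 7911, 5998, 6494 and 7827. Clusters (scanpy 1.11.5, leidenalg 0.10.2, 2000 variable genes without the members, resolution 1.0) were named where at least 3 markers and 50% of a list stood out, thresholds set after seeing the data; 1 stayed unnamed. UMIs were summed per library and class. With 1 library per group no test was run, and intervals (scipy 1.17.1) cover counting error only. The simulated counts they were tried on held counting error alone, with no spread between cells or animals. Members and lists were chosen with earlier results of these data known. Library values are given for members past the fold, the 5 highest and 5 lowest in granulosa-like cells, 2 per other class and treatment, and the 5 whose highest class stood farthest above the median class; other members are added for completeness. Alternatives covered filters, doublets, scaling, weighting, pseudocount and gating; 4 more, on clusters, were chosen after seeing the data.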

Additional observations from a re-analysis of the deposited data

Results flagged for a closer look

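For 6 glycolytic enzymes, both AMH comparisons lay above 0 in granulosa-like cells and below 0 in theca-like cells; the difference between the classes was not tested. The log2 ratios against control and against doxorubicin were 0.11 and 0.13 in granulosa-like cells and -0.14 and -0.31 in theca-like cells for Aldoa, 0.20 and 0.24 and -0.27 and -0.24 for Tpi1, and 0.077 and 0.31 and -0.57 and -0.57 for Gapdh. For Pgk1 they were 0.12 and 0.22 and -0.30 and -0.16. For Pgam1 they were 0.15 and 0.15 and -0.70 and -0.60, and for Eno1 0.48 and 0.31 and -0.53 and -0.70. The share of cluster 10 among theca-like cells moves with the AMH label, and in cluster 6 alone Gapdh had 0.09 and 0.11, Eno1 0.25 and -0.12 and Pgam1 -0.33 and -0.28. Gapdh in granulosa-like cells was at -0.11 against control with each cell weighted equally and at -0.0073 with the same mix of clusters in every library.

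Ldhb lay below 0 in both AMH comparisons in granulosa-like cells (-0.20 and -0.36) and above 0 in both in stroma-like cells (0.17 and 0.072); this difference was not tested either. With the same mix of clusters in every library the granulosa-like ratios were -0.095 and -0.16.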

How the results depend on the processing

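No paired analysis and no other test was run, with 1 library per group. Over 12 alternatives, the members' median in granulosa-like cells ranged from 0.11 to 0.21 for doxorubicin against control, 0.04 to 0.15 for doxorubicin+AMH against AMH, 0.02 to 0.17 for AMH against control and -0.03 to 0.03 for doxorubicin+AMH against doxorubicin. Without the level filter, which brings in all 30 members, the doxorubicin medians were 0.11 and 0.042, and with the same mix of clusters the second was 0.063. The AMH median against control was 0.17 with marker gating of single cells and 0.12 with median-of-ratios scaling. Ratios of AMH against control changed sign for Slc16a1 with gating (0.038), and for Gapdh with equal weighting of cells (-0.11) and the same mix of clusters (-0.0073). With equal weighting 0 members were past the fold downward with AMH in granulosa-like cells, and the Ldha shares were 34.9, 35.1, 47.7 and 43.8%. Pfkfb3 ranged from -0.86 to -0.30 and -0.95 to -0.38, and Ldha from 0.30 to 0.51 and 0.21 to 0.34.

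In theca-like cells, 1 member was past the fold downward with AMH under gating (Pfkfb4), 2 under median-of-ratios scaling (Pfkfb4, Pgam1), 6 without the level filter and 0 in cluster 6 alone, where the medians were 0.058 and 0.12, Gapdh 0.085 and 0.11 and Eno1 0.25 against control. Median-of-ratios scaling left 2 members higher in granulosa-like than in mural cells, 2 higher than in blood endothelial-like cells and 1 lower than in macrophage-like cells. Gating gave 0 lower than in theca-like cells, 6 higher than in stroma-like cells and 2 higher than in blood endothelial-like cells, and equal weighting 0 lower than theca-like and 2 higher than blood endothelial-like. Cluster 15 had 8 members higher under median-of-ratios scaling and 1 under equal weighting, and cluster 11 had 1 under equal weighting. Except where fewer cells or more genes entered by construction, the cause was not tested. The 56 to 168 endothelial-like and 88 to 188 macrophage-like cells per library limit the precision of those classes, and pooled ovaries leave the spread between animals unmeasured.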

Other observations

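Surface epithelial-like cells (103, 91, 33 and 63) were too few in the combination for a comparison. Cluster 29 of this class gave 38, 39, 0 and 33 cells, so the mix of cells differed in the combination. Some members were high in surface epithelial-like cells. Egln3, an oxygen-sensing prolyl hydroxylase that is induced by low oxygen, was at 36.6, 64.4, 64.1 and 50.9 CPM there and under 1 CPM in granulosa-like cells. Slc16a1 was at 104, 119, 71.9 and 134 CPM, Ldhb at 489, 420, 590 and 359 CPM, and Aldoc at 28.0, 21.9, 29.1 and 9.42 CPM. All 4 libraries had more Egln3 in these cells than in any of the 6 classes compared above.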
